A study of Mus musculus with 15 samples.

Results

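The constitutive proteasome genes are those that encode the proteasome every cell carries, together with the factors that assemble it. They were taken by name, as every gene whose symbol begins with Psma, Psmb, Psmc, Psmd, Psmf or Psmg and a digit, leaving out the inducible immunoproteasome subunits Psmb8, Psmb9 and Psmb10. The rule took 40 of the 10653 genes listed, and all 40 passed the filter on low values. Of these, 14 encode the core particle, 17 the regulatory particle, and 9 are assembly chaperones (7), the inhibitor Psmf1 and Psmc3ip, a meiotic recombination gene that the rule took by its symbol alone. Psma8 and Psmb11 were not analysed here.

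Transcript levels were measured in MPI cells, a female C57BL6/J mouse macrophage culture derived from fetal liver that renews itself in GM-CSF and stands in for alveolar macrophages. There were 3 libraries in each of 5 groups, all collected at 24 h and all grown with GM-CSF. Cells received riebeckite asbestos (9 µg/cm²), riebeckite cleavage fragments (40 µg/cm²), tremolite asbestos (5 µg/cm²) or tremolite cleavage fragments (60 µg/cm²), or no agent (labelled as vehicle control, here called untreated), and the doses were matched by surface area and not by mass. Riebeckite and tremolite are amphibole minerals. Asbestos is their form of thin fibres, and cleavage fragments are the elongated pieces of the non-asbestos form. Separate cultures for the 3 libraries are not stated in the labels. The p-values below therefore reflect only how far the libraries of a group differ, and that spread could be technical.

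All 12 macrophage markers examined were listed, and 0 of 8 markers of fibroblasts, epithelium and endothelium, 0 of 6 of lymphocytes, 0 of 3 of liver and 0 of 5 of erythroid and mast cells were. Of 6 neutrophil markers S100a8 was listed, at 54.3 to 58.5 FPKM with riebeckite asbestos, 50.6 to 52.4 FPKM with riebeckite fragments, 31.3 to 41.5 FPKM with tremolite asbestos, 26.5 to 29.6 FPKM with tremolite fragments and 25.7 to 31.3 FPKM in untreated cells. FPKM, a unit read from the deposited values, is fragments per kilobase of transcript scaled to the fragments of the library. A level is thus relative to the other transcripts of its library. Summed FPKM per library lay between 257329 and 273570, and read depth is unknown. Mitochondrial genes took 6.08 to 6.90% of the sum with riebeckite asbestos and 7.45 to 8.17% with riebeckite fragments. The share was 7.99 to 8.33% with tremolite asbestos, 8.10 to 8.62% with tremolite fragments and 8.54 to 8.86% in untreated cells. Some results are also given rescaled to nuclear genes. That step evens out summed FPKM as well as the mitochondrial share, and summed FPKM averaged 268133 with riebeckite fragments and 259475 in untreated cells. In bulk samples, fewer cells of a type and less RNA per cell cannot be told apart.

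The proteasome degrades proteins tagged with ubiquitin. Its core particle is a barrel of stacked rings, in which alpha subunits gate the entrance and beta subunits line the chamber, and only Psmb5 (chymotrypsin-like), Psmb6 (caspase-like) and Psmb7 (trypsin-like) among the constitutive beta subunits cut peptides. The regulatory particle caps the barrel: a ring of ATPases unfolds the substrate, non-ATPase base subunits dock ubiquitin, and a lid removes it. When proteasome capacity falls short in mammalian cells, the transcription factor Nfe2l1 raises the genes of both particles through antioxidant response elements in their promoters, and in macrophages interferon instead raises Psmb8, Psmb9 and Psmb10, which replace the catalytic subunits and favour peptides for antigen presentation.

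Promoters are shown for some of the genes on which the results below turn. They are the 250 bases before the start of Psmb5 and Psmb6, the catalytic subunits with the largest rises, and of Psmd10, a chaperone that was higher with each particle. Sequences are from RefSeq (GRCm38.p6) and read 5′ to 3′ on the strand of the gene, at chr14:54617996-54618245 (minus strand) for Psmb5, chr11:70525107-70525356 (plus strand) for Psmb6 and chrX:140956712-140956961 (minus strand) for Psmd10. Capitals mark TGACNNNGC, the core of the antioxidant response element, and CCAAT, the box bound by the factor NF-Y, on either strand, so that ATTGG is CCAAT on the opposite one.
Psmb5: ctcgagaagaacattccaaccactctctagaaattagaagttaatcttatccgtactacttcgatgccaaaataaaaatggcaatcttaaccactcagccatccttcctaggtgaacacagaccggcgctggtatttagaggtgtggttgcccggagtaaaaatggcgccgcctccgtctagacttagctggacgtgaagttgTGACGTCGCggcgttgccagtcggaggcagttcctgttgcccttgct
Psmb6: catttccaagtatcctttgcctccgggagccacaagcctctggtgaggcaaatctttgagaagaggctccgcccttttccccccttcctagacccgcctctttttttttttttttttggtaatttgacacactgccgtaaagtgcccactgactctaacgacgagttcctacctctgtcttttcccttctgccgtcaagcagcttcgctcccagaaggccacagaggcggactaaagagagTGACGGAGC
Psmd10: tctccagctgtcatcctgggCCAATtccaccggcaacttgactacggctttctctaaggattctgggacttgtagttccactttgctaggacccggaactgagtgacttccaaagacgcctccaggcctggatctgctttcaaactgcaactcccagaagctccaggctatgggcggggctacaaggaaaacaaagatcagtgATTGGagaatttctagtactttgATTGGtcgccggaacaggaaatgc
In Psmb5 and Psmb6 the capitals are a TGACNNNGC match on the strand of the gene, beginning 47 and 9 bases before the RefSeq start. The listed genes begin elsewhere, at chr14:54618022 for Psmb5, inside the letters shown, and at chr11:70525367 for Psmb6, so these distances hold for the RefSeq start alone. The match is TGACGTCGC in Psmb5 and TGACGGAGC in Psmb6. In Psmd10 they are 3 CCAAT boxes, and these letters hold no TGACNNNGC.

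Promoter entries existed for 33 of the 40 genes, as 35 windows of 300 bases (250 before to 50 after the start). TGACNNNGC was in 5 of the 35 windows (14.3%) and in 12.4% of all 32851 windows of the table, both strands searched. The 5 genes were Psmb5, Psmb6 and Psmd9, with the match on the strand of the gene, and Psmc6 and Psmd12, with it on the other strand. CCAAT was in 12 of the 35 windows (34.3%) and in 37.4% of all windows. The window of Psmd8, which like Psmd10 was higher with each particle, held neither motif. Neither did those of Psmb4, Psmc5 and Psmd1, which rose with riebeckite asbestos. The motifs did not overlap in the windows printed. A match is a description of the letters and not a bound site.

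In untreated cells the core particle genes lay between 24.1 ± 0.401 FPKM for Psma7, an alpha subunit, and 117 ± 7.47 FPKM for Psmb1, a structural beta subunit (SD, n = 3). The regulatory particle genes lay between 10.8 ± 0.259 FPKM for Psmd11, a lid subunit, and 75.7 ± 0.933 FPKM for Psmd8, another lid subunit. Subunits that the assembled particle holds in equal number thus had listed levels that differed 4.86-fold in the core and 7.03-fold in the regulatory particle. The assembly chaperones other than Psmd10 were lower than every subunit gene but Psmd11, from 2.80 ± 0.339 FPKM for Psmg3 to 12.3 ± 1.19 FPKM for Psmg2 among those of the core. Of the regulatory particle chaperones, Psmd5 was at 3.18 ± 0.133 and Psmd10 at 33.7 ± 1.42 FPKM, while the inhibitor Psmf1 was at 3.49 ± 0.0564 FPKM.

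For many members the listed coding transcripts summed to more than the value in the gene table. The sum exceeded the gene value by over 10% for 31 of the 40 genes, with a median ratio of 1.52 for the members and 1.23 for all 10546 genes with both values. Psmb6 was at 93.5 FPKM in the gene table and 200.2 FPKM by transcripts, whereas Psmb5 was at 59.4 and 59.6 FPKM and Psmd2 at 62.7 and 49.7 FPKM. By transcripts the core ranged from Psma3 at 29.7 FPKM to Psmb6 and the regulatory particle from Psmd11 at 20.2 FPKM to Psmd8 at 136 FPKM, so the order of levels depends on which table is read. Of the 40 genes, 35 have a transcript of a type other than protein coding in the GENCODE M21 annotation. Another annotated gene overlaps 18 of the 40, for 9 of them on the same strand.

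**Figure D1:**
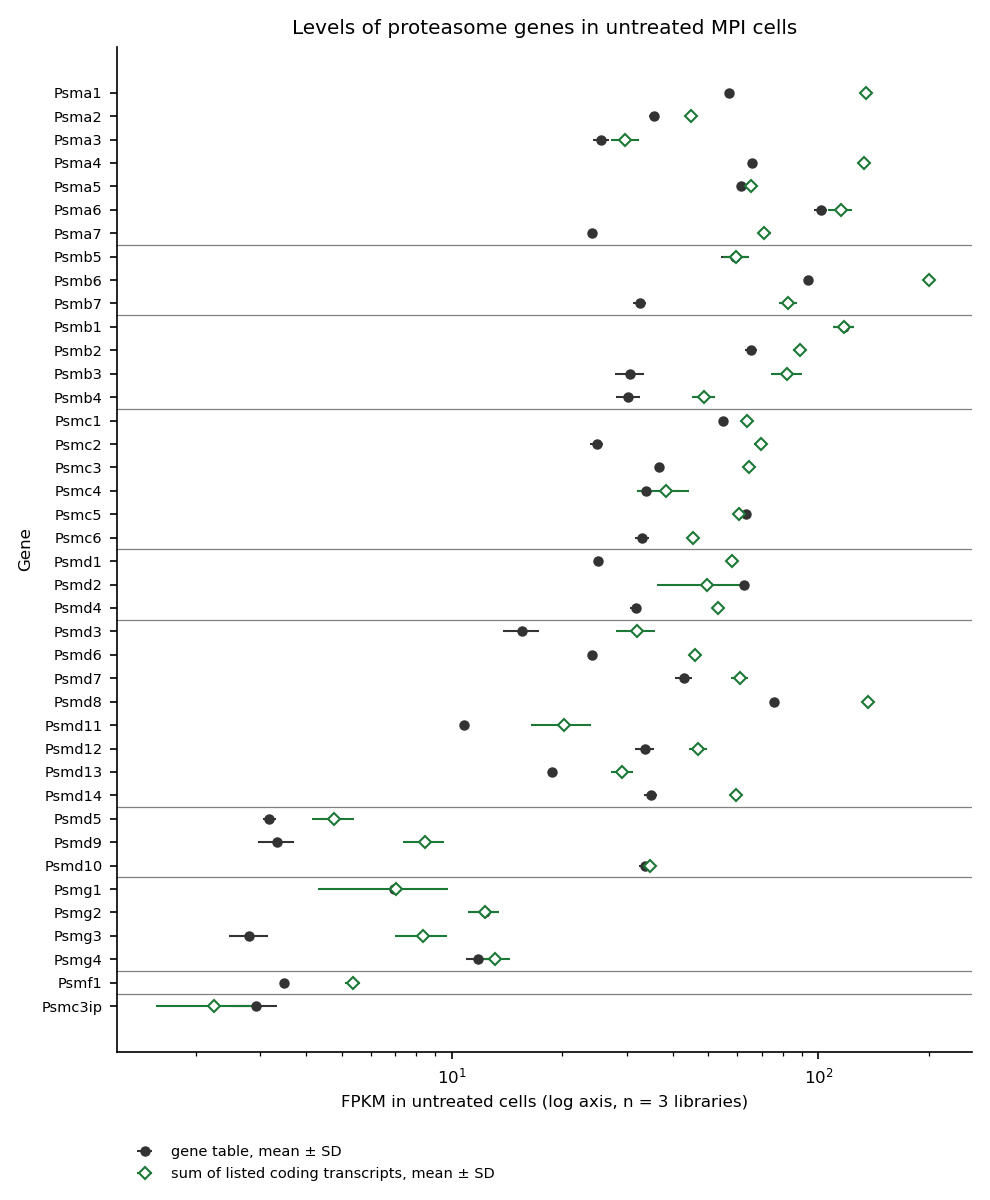
Level of each of the 40 genes in untreated cells on a logarithmic FPKM axis, from the gene table (filled circles) and as the sum of the listed coding transcripts (open diamonds), mean ± SD of 3 libraries, with lines between the classes. Most members read higher by transcripts, as Psmb6 does at 200.2 against 93.5 FPKM, and the chaperones and Psmf1 lie mostly below both particles.

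Each particle was set against untreated cells to ask which proteasome genes moved 24 h after exposure, with limma on log2(FPKM + 1) over 10616 genes, Benjamini-Hochberg adjustment and a threshold of 0.05. Fold changes below are on that scale. The 4 comparisons share the untreated libraries. With riebeckite asbestos the libraries of the 2 groups did not overlap for 55.3% of all genes tested (25.7% higher). That share was 49.1% with riebeckite fragments (19.2% higher), 39.9% with tremolite asbestos (15.9% higher) and 45.1% with tremolite fragments (19.6% higher). A lack of overlap, where given below, is thus common among all genes.

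With riebeckite asbestos, 17 of the 40 genes rose and 0 fell. The share called, 42.5%, was near the 45.3% of all genes tested, but the background was 21.0% higher and 24.3% lower. The median log2 fold change of the members was 0.074, and that of all genes -0.017. The 2 medians were 0.021 and -0.064 on rescaling to nuclear genes and 0.032 and -0.024 with quantile normalization. By role, 3 of 3 catalytic, 1 of 4 structural and 1 of 7 alpha subunits of the core rose, as did 10 of 17 regulatory particle genes. The chaperones Psmd10 and Psmg4 complete the list. Rescaled to nuclear genes alone, 9 rose and 3 fell, with the calls of Psma5, Psmb7, Psmc4, Psmd3, Psmd4, Psmd7, Psmd13 and Psmg4 lost, and under quantile normalization 12 rose and 1 fell.

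Psmb5 (ENSMUSG00000022193.7, chr14:54614119-54618022, GRCm38) had the largest change of any member with both riebeckite preparations. Its levels were 111, 89.0 and 96.6 FPKM with riebeckite asbestos, 95.7, 76.2 and 85.5 FPKM with riebeckite fragments, 72.8, 61.2 and 66.6 FPKM with tremolite asbestos, 66.3, 71.7 and 73.0 FPKM with tremolite fragments, and 65.0, 57.8 and 55.3 FPKM in untreated cells. Every riebeckite library of either form stood above every untreated library, while tremolite asbestos overlapped untreated cells. The log2 fold change was 0.73 with riebeckite asbestos (SE 0.0975, limma adjusted p = 4.79e-05) and 0.52 with riebeckite fragments (adjusted p = 0.000887). It was 0.17 with tremolite asbestos (adjusted p = 0.243) and 0.24 with tremolite fragments (adjusted p = 0.0845), which did not pass. The last of these passed in a fit of only the groups compared and with the replicate block, at adjusted p = 0.0378 and 0.0324. Both riebeckite calls held under all 25 alternatives run. Psmb5 overlaps the microRNA gene Mir686 on its own strand and has 1 named pseudogene, and whether the counting used strand is not stated in the sources used here. Psmb6 has 2 named pseudogenes. Psmb7 has 1, and it overlaps the microRNA gene Gm27634 on its own strand and the coding gene Nek6 on the other.

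Psmb6 (ENSMUSG00000018286.6, chr11:70525367-70527858) was at 116, 116 and 115 FPKM with riebeckite asbestos, 103, 95.7 and 90.5 FPKM with riebeckite fragments, 113, 101 and 106 FPKM with tremolite asbestos, 102, 105 and 98.5 FPKM with tremolite fragments, and 93.6, 95.6 and 91.3 FPKM in untreated cells. The riebeckite asbestos libraries lay above all others. It rose with riebeckite asbestos (log2 fold change 0.31, SE 0.0481, limma adjusted p = 0.000189) and with tremolite asbestos (0.18, adjusted p = 0.0135). Both fragment groups missed the threshold, with 0.04 for riebeckite (adjusted p = 0.511) and 0.12 for tremolite (adjusted p = 0.0795). The tremolite asbestos call was lost without untreated replicate 3 (adjusted p = 0.0526) or without tremolite asbestos replicate 1 (adjusted p = 0.0609).

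Psmb7 (ENSMUSG00000026750.6, chr2:38588036-38644087) passed with riebeckite asbestos alone. It was at 37.6, 36.3 and 35.01 FPKM with riebeckite asbestos and 34.2, 31.6 and 31.9 FPKM in untreated cells, which did not overlap (log2 fold change 0.15, limma adjusted p = 0.0192). The other particles gave 0.10 for riebeckite fragments (adjusted p = 0.108), 0.01 for tremolite asbestos (adjusted p = 0.927) and 0.05 for tremolite fragments (adjusted p = 0.449). The riebeckite asbestos call was lost without untreated replicate 2 or 3 or riebeckite asbestos replicate 1, at adjusted p = 0.0644 to 0.0777.

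**Figure D2:**
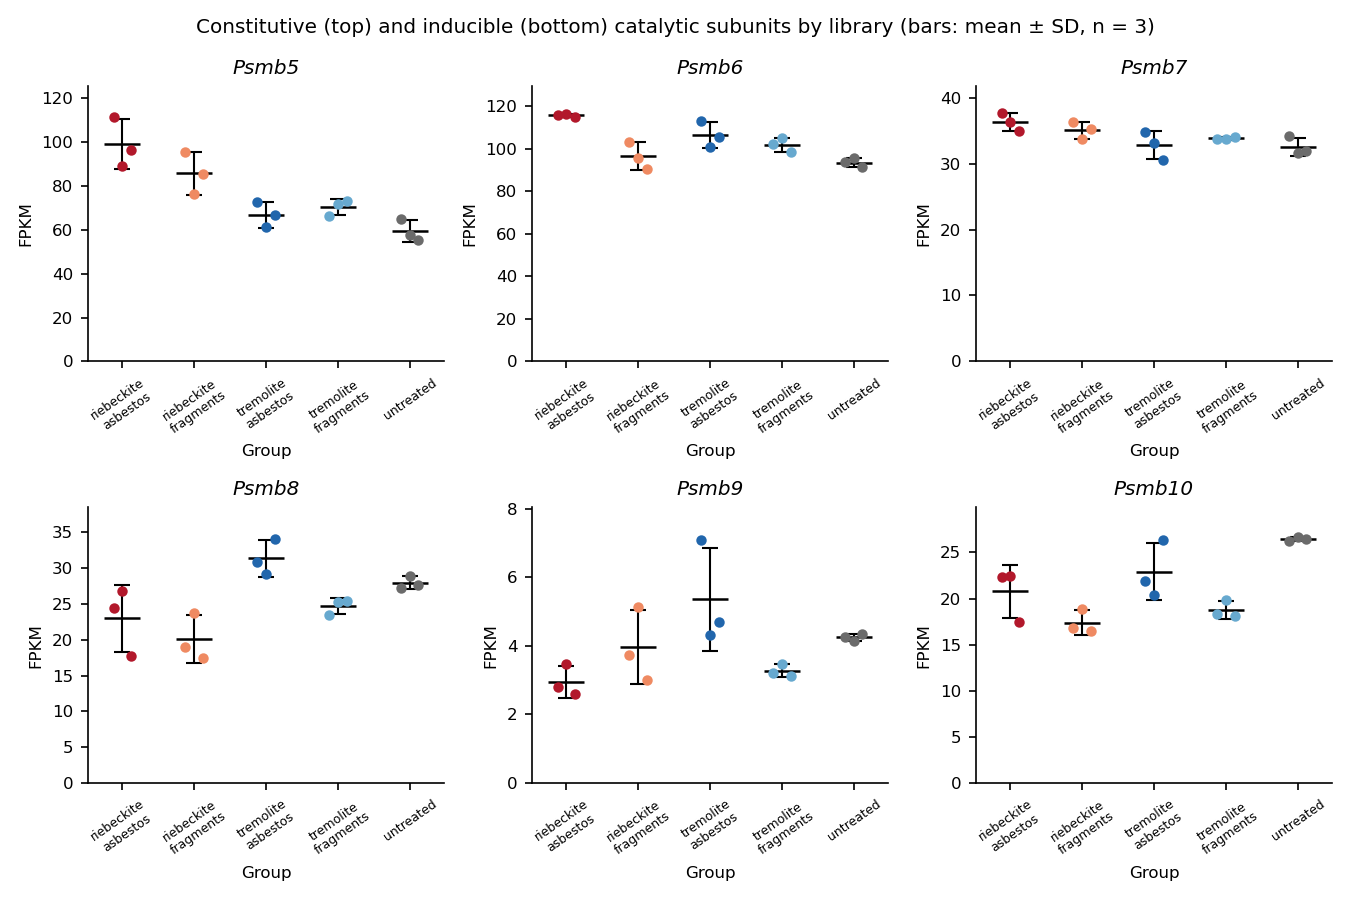
FPKM in each library (points) with mean ± SD of 3 libraries per group (bars), for the constitutive catalytic subunits Psmb5, Psmb6 and Psmb7 in the upper row and the inducible Psmb8, Psmb9 and Psmb10 in the lower row; every axis starts at 0. Psmb5 stands at 89.0 to 111 FPKM with riebeckite asbestos and 55.3 to 65.0 FPKM in untreated cells, and Psmb10 at 17.5 to 22.5 FPKM and 26.3 to 26.6 FPKM.

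Among the other core genes, Psmb4, a structural beta subunit, rose with riebeckite asbestos (37.0, 37.2 and 35.02 FPKM, against 32.7, 29.7 and 28.4 FPKM in untreated cells; log2 fold change 0.26, limma adjusted p = 0.000995). It also passed with riebeckite fragments (0.15, adjusted p = 0.0299), where its libraries overlapped those of untreated cells; that call was lost without untreated replicate 2 or 3 or riebeckite fragments replicate 2 or 3, at adjusted p = 0.0575 to 0.133. Psma5 was the alpha subunit that passed, with riebeckite asbestos (0.14, adjusted p = 0.0133), a call lost without riebeckite asbestos replicate 2 (adjusted p = 0.0632). The remaining alpha subunits and Psmb1, Psmb2 and Psmb3 passed with no particle, and their changes with riebeckite asbestos lay between -0.05 for Psmb2 and 0.13 for Psmb3.

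The regulatory particle gave 10 of its 17 genes with riebeckite asbestos, from each of its parts. Of the ATPases Psmc3, Psmc4 and Psmc5 rose, with log2 fold changes of 0.21, 0.21 and 0.19 (limma adjusted p = 0.000496, 0.0135 and 0.000661). All 3 base subunits without ATPase activity rose: Psmd2, a docking site for ubiquitin carriers (0.26, adjusted p = 1.68e-05), Psmd1, its large scaffold partner (0.18, adjusted p = 0.000427), and Psmd4, a ubiquitin receptor (0.11, adjusted p = 0.0249). In the lid Psmd3, Psmd7, Psmd8 and Psmd13 rose. Psmd14, the lid enzyme that removes ubiquitin, was at 32.3, 33.3 and 33.3 FPKM with riebeckite asbestos and 33.7, 36.5 and 34.7 FPKM in untreated cells and did not pass (-0.08).

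Psmd8 (ENSMUSG00000030591.17, chr7:29174188-29180701), a lid subunit, was higher with each particle. It was at 92.7, 91.7 and 89.1 FPKM with riebeckite asbestos, 85.9, 82.7 and 79.2 FPKM with riebeckite fragments, 90.8, 86.0 and 87.5 FPKM with tremolite asbestos, 81.4, 82.9 and 82.1 FPKM with tremolite fragments, and 76.2, 76.2 and 74.6 FPKM in untreated cells. No treated library reached down to the untreated ones. The log2 fold changes were 0.27, 0.12, 0.22 and 0.12 in that order (limma adjusted p = 1.8e-05, 0.008, 0.000292 and 0.015). The call with tremolite fragments was lost without untreated replicate 3 or tremolite fragments replicate 2, at adjusted p = 0.0522 to 0.0558, and that with riebeckite fragments on rescaling to nuclear genes (adjusted p = 0.062).

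Psmd3, another lid subunit, was at 21.0, 20.03 and 16.01 FPKM with riebeckite asbestos, 15.1, 13.7 and 14.2 FPKM with riebeckite fragments, and 15.02, 17.5 and 14.1 FPKM in untreated cells. The asbestos libraries overlapped the untreated ones. The call against untreated cells (log2 fold change 0.27, limma adjusted p = 0.0234) was lost without untreated replicate 1 or 3 or riebeckite asbestos replicate 1 or 2, at adjusted p = 0.0672 to 0.107. The smaller rises of Psmd4, Psmd7 and Psmd13, each 0.11, were lost without 4, 3 and 5 single libraries, at adjusted p up to 0.108, 0.0828 and 0.125. By summed transcripts, Psmd2 and Psmc4 did not pass with riebeckite asbestos (adjusted p = 0.0732 and 0.159), and neither did Psmd3, Psmb7 and Psmg4.

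Psmd10 (ENSMUSG00000031429.14, chrX:140948429-140956728), which encodes gankyrin, a chaperone that holds the ATPase Psmc4 during assembly, was the only member other than Psmd8 to pass with each particle. It was at 43.8, 45.8 and 41.4 FPKM with riebeckite asbestos, 38.1, 38.2 and 38.9 FPKM with riebeckite fragments, 37.8, 40.9 and 40.1 FPKM with tremolite asbestos, 38.7, 40.2 and 40.5 FPKM with tremolite fragments, and 34.97, 32.2 and 34.0 FPKM in untreated cells. Every treated library stood above every untreated one. The log2 fold changes were 0.36, 0.18, 0.23 and 0.24 in that order (limma adjusted p = 1.42e-05, 0.00421, 0.00186 and 0.00109). All held without any 1 library, and on rescaling to nuclear genes the riebeckite fragments value reached adjusted p = 0.0505. The other regulatory particle chaperones, Psmd5 and Psmd9, passed with none.

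Of the 4 chaperones of the core, Psmg1 and Psmg2 fell. Psmg1, which with Psmg2 guides the alpha ring, was at 4.69, 5.54 and 6.04 FPKM with riebeckite fragments, 5.42, 5.22 and 6.14 FPKM with tremolite fragments, and 6.86, 7.13 and 6.87 FPKM in untreated cells. It fell with both fragment preparations (log2 fold change -0.31 and -0.27, limma adjusted p = 0.0106 and 0.0291). By summed transcripts neither fall passed, and the tremolite value was 0.05 (adjusted p = 0.922). The riebeckite call was lost without riebeckite fragments replicate 1 (adjusted p = 0.0506), and the tremolite call without any 1 untreated library or tremolite fragments replicate 1 or 2 (adjusted p = 0.0591 to 0.106).

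Psmg2 was at 10.3, 9.43 and 10.3 FPKM with riebeckite fragments, 9.74, 8.99 and 10.9 FPKM with tremolite asbestos, and 11.0, 12.6 and 13.3 FPKM in untreated cells. It fell with both (log2 fold change -0.27 and -0.29, limma adjusted p = 0.0235 and 0.0244). Its calls were lost without untreated replicate 2 or 3, without riebeckite fragments replicate 2 in the first case and without tremolite asbestos replicate 1 or 2 in the second, at adjusted p = 0.0657 to 0.102. With median-ratio scaling neither passed (adjusted p = 0.058 and 0.065). Psmg4, whose product pairs with that of Psmg3, was instead higher with riebeckite asbestos, at 14.5, 14.4 and 13.7 FPKM, against 11.4, 12.8 and 11.2 FPKM in untreated cells (0.25, adjusted p = 0.0424). That call was lost without untreated replicate 1 or 3, any 1 riebeckite asbestos library, riebeckite fragments replicate 3 or tremolite fragments replicate 3, at adjusted p = 0.0513 to 0.128. Psmg3, Psmf1 and Psmc3ip passed with no particle.

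**Figure D3:**
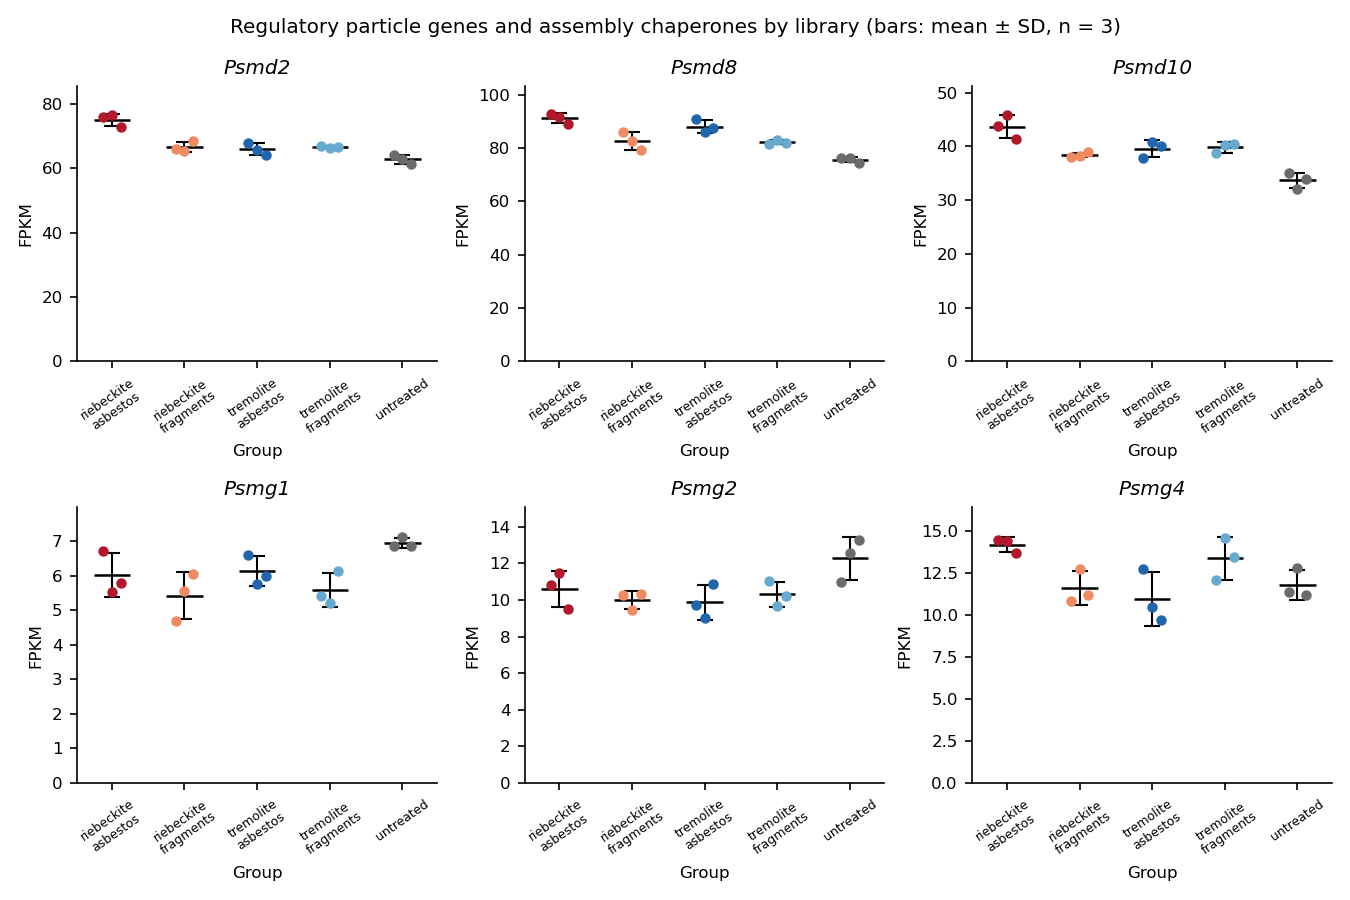
FPKM in each library (points) with mean ± SD of 3 libraries per group (bars), for Psmd2, Psmd8 and Psmd10 in the upper row and the core chaperones Psmg1, Psmg2 and Psmg4 in the lower row; every axis starts at 0. Psmd8 and Psmd10 lie above untreated cells in all 12 treated libraries, and Psmg1 lies at 4.69 to 6.04 FPKM with riebeckite fragments and 6.86 to 7.13 FPKM in untreated cells.

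With riebeckite fragments, 6 members rose (Psmb5, Psmc4, Psmd10, Psmb4, Psmd8 and Psmd2) and 2 fell (Psmg1 and Psmg2), 8 of the 40 against a background of 38.4% (15.3% higher and 23.1% lower). The direction of this group depends on the scaling: 1 rose and 11 fell on rescaling to nuclear genes, and 11 rose and 1 fell with median-ratio scaling. The total was 5, 4 and 5 without untreated replicate 2, untreated replicate 3 and riebeckite fragments replicate 3. Psmc4, an ATPase, was at 39.5, 38.2 and 39.2 FPKM with riebeckite fragments and 33.3, 35.1 and 32.9 FPKM in untreated cells (log2 fold change 0.20, limma adjusted p = 0.0214); this was lost without untreated replicate 1 or 3 or riebeckite fragments replicate 1 or 3, at adjusted p = 0.0536 to 0.0726. The call of Psmd2 (0.08, adjusted p = 0.0436) was lost on leaving out any 1 of 10 of the 15 libraries, at adjusted p up to 0.154.

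With tremolite asbestos, Psmb6, Psmd8 and Psmd10 rose and Psmg2 fell, 4 of the 40 against 23.9% of all genes (10.0% higher and 13.9% lower). With median-ratio scaling 6 rose and 0 fell, and without untreated replicate 3 the total was 2. With tremolite fragments, Psmd8 and Psmd10 rose and Psmg1 and Psmc5 fell, 4 of the 40 against 27.5% of all genes (12.5% higher). With median-ratio scaling 4 rose and 1 fell, and with quantile normalization 5 rose and 2 fell. That total was 2, 1, 7, 2 and 2 without untreated replicate 2, untreated replicate 3, riebeckite fragments replicate 1, tremolite fragments replicate 1 and tremolite fragments replicate 2.

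Psmc5, an ATPase, was thus called in opposite directions. It was at 73.9, 70.3 and 72.4 FPKM with riebeckite asbestos, 58.6, 58.4 and 59.6 FPKM with tremolite fragments, and 61.3, 63.8 and 64.9 FPKM in untreated cells, with no overlap. The fall with tremolite fragments was small (log2 fold change -0.10, limma adjusted p = 0.0403) and was lost without any 1 of 6 libraries, at adjusted p = 0.0516 to 0.139: untreated replicate 2 or 3, riebeckite asbestos replicate 3, and each tremolite fragments library. That fall was also lost with median-ratio scaling, with no mean-variance trend and by summed transcripts, at limma adjusted p up to 0.178. Of the 40 members, 21 passed with no particle, as did 4603 of all 10616 genes tested (43.4%).

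**Figure D4:**
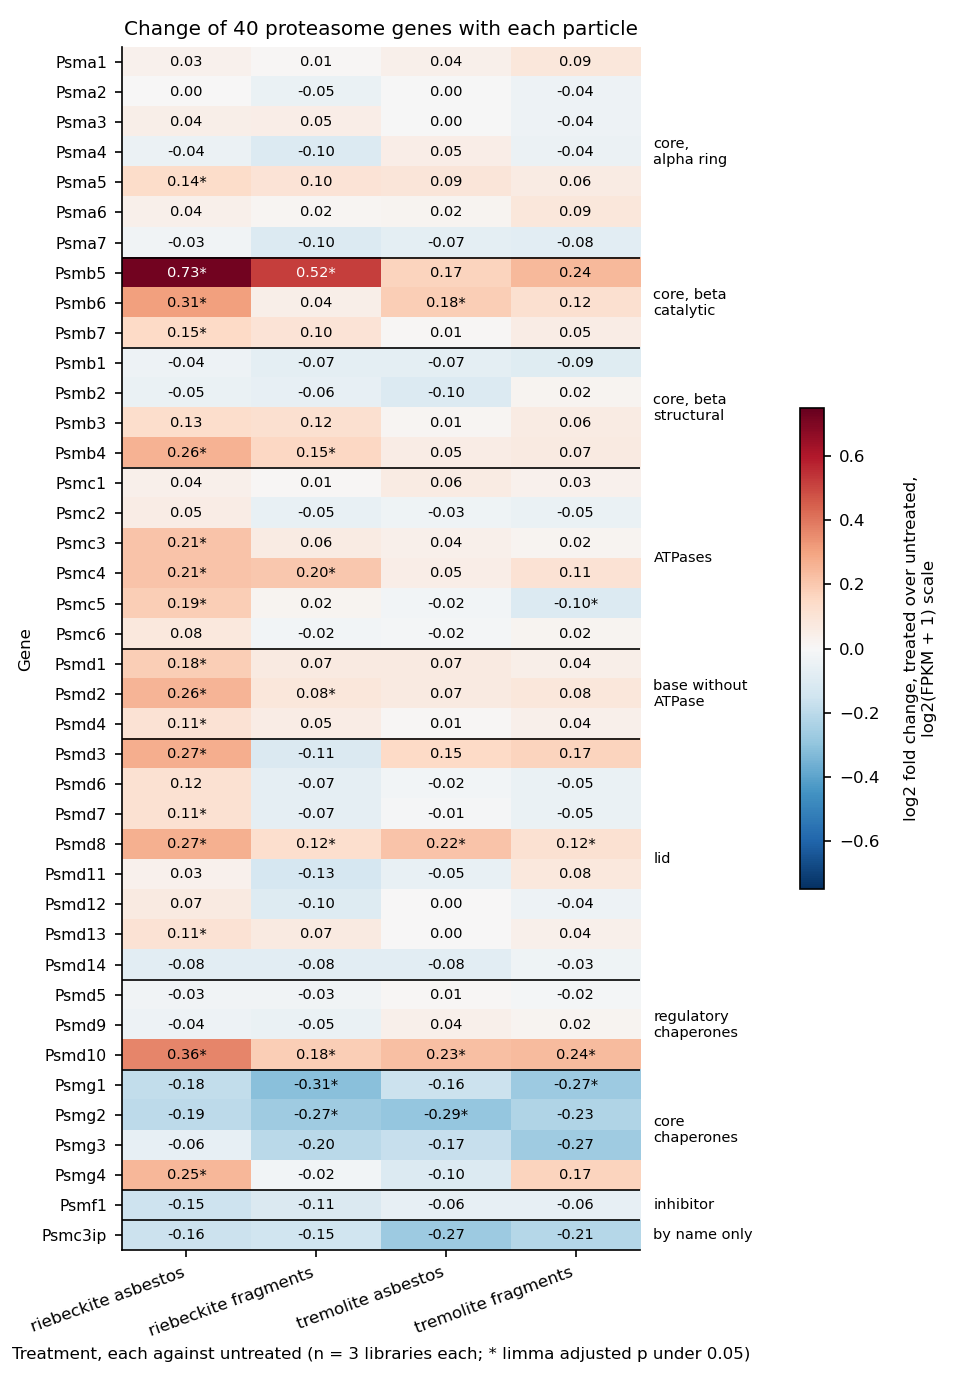
Log2 fold change of each of the 40 genes (rows, by class) with each particle (columns) against untreated cells, on the log2(FPKM + 1) scale, red for higher and blue for lower; an asterisk marks a limma adjusted p under 0.05, and n = 3 libraries per group. The riebeckite asbestos column holds 17 asterisks, all on rises, and the core chaperones Psmg1 and Psmg2 hold the falls of the remaining columns together with Psmc5.

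Summed over its 14 genes, the core stood at 878 ± 21.0 FPKM with riebeckite asbestos, 829 ± 25.2 FPKM with riebeckite fragments, 819.8 ± 33.9 FPKM with tremolite asbestos, 825 ± 6.71 FPKM with tremolite fragments and 799.8 ± 27.0 FPKM in untreated cells. The 17 regulatory particle genes summed to 692 ± 8.73, 633 ± 10.0, 641 ± 3.15, 633 ± 2.45 and 622 ± 4.47 FPKM in the same order (SD, n = 3). The riebeckite asbestos libraries were above all untreated libraries in both sums. In the core, Psmb5 averaged 99.0 FPKM with riebeckite asbestos and 59.4 FPKM in untreated cells, and Psmb6 115.7 and 93.5 FPKM. Psmb1 (114.1 and 117.1 FPKM) and Psmb2 (63.0 and 65.4 FPKM) averaged lower, so the core sum does not stand for each of its subunits. The sums were not rescaled to nuclear genes. The log2 ratio of the regulatory sum to the core sum was -0.34 ± 0.0351 with riebeckite asbestos and -0.36 ± 0.0569 in untreated cells, a difference smaller than the spread. These sums were not tested, because the genes were chosen with results known.

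**Figure D5:**
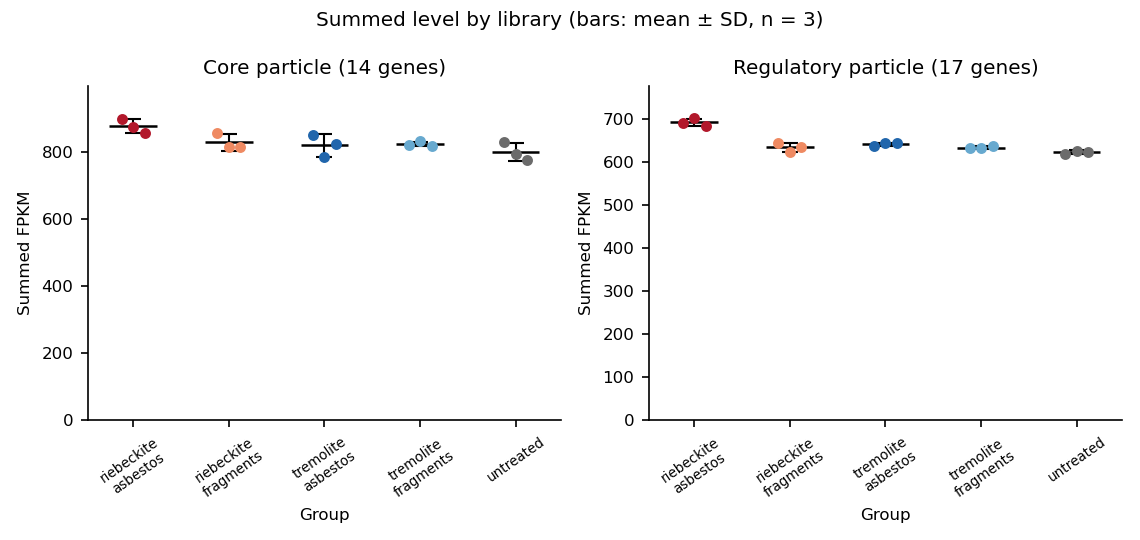
Summed FPKM of the 14 core genes (left) and the 17 regulatory particle genes (right) in each library (points), with mean ± SD of 3 libraries per group (bars) and axes from 0. The regulatory particle sum was 684 to 701 FPKM with riebeckite asbestos and 617 to 626 FPKM in untreated cells.

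Asbestos was set against fragments of the same mineral to ask whether the fibrous habit mattered. For riebeckite, 10 members were higher with asbestos and 0 lower, 10 of the 40 against a background of 10.6%. They were Psmb6 of the core, Psmd10, and 8 of the 17 regulatory particle genes, where the background for a higher level was 6.71%. Psmd3 (log2 fold change 0.38, limma adjusted p = 0.0177), Psmb6 (0.26, adjusted p = 0.00504) and Psmd7 (0.18, adjusted p = 0.00674) had the largest differences among the members that passed. Psmd3 lost its call without riebeckite asbestos replicate 1 or 2 or riebeckite fragments replicate 2, at adjusted p = 0.0636 to 0.0719. Psmg4 (0.27, adjusted p = 0.0815), Psmb5 (0.20, adjusted p = 0.213) and Psmd6 (0.18, adjusted p = 0.107) did not pass. The total was 1 in a fit of only these groups, and 5 without riebeckite asbestos replicate 2 or riebeckite fragments replicate 2.

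For tremolite, 0 of the 40 members differed between asbestos and fragments by limma adjusted p, against a background of 0.942%. The log2 differences lay between -0.27 and 0.11.

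Between minerals, 10 members were higher with riebeckite asbestos than with tremolite asbestos and 0 lower, 10 of the 40 against 26.5% of all genes (15.5% higher and 11.0% lower). Psmb5 led (log2 fold change 0.56, limma adjusted p = 0.00111), followed by Psmg4 (0.35, adjusted p = 0.0131) and Psmb4 (0.21, adjusted p = 0.00919). Psmg4 lost its call without tremolite asbestos replicate 3 (adjusted p = 0.0607), and the total was 6 without riebeckite asbestos replicate 2. Between riebeckite and tremolite fragments only Psmc5 passed (0.12, adjusted p = 0.0385), 1 of the 40 against 11.3% of all genes (5.31% higher), with 64.6, 62.1 and 65.8 FPKM in the first and 58.6, 58.4 and 59.6 FPKM in the second. That call was lost without untreated replicate 2, riebeckite fragments replicate 1 or 3, or any 1 tremolite fragments library, at adjusted p = 0.0541 to 0.115, and rescaled to nuclear genes 0 were higher and 2 lower.

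The effect of asbestos against fragments itself differed between the minerals for 2 of the 40 members, Psmd2 and Psmg4, against a background of 3.93%, by the limma interaction of mineral and habit. That count lies near the background, and nothing is read from it about the members as a set.

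No inducible catalytic subunit passed the threshold as higher with any particle. Psmb10 fell with riebeckite asbestos (22.4, 22.5 and 17.5 FPKM), riebeckite fragments (16.8, 18.9 and 16.5 FPKM) and tremolite fragments (18.3, 19.8 and 18.1 FPKM), against 26.3, 26.6 and 26.5 FPKM in untreated cells. The log2 fold changes were -0.34, -0.58 and -0.48 (limma adjusted p = 0.0127, 0.000441 and 0.00276), and the first was lost without riebeckite asbestos replicate 3 (adjusted p = 0.0556) and by summed transcripts (adjusted p = 0.0784). Psmb8 fell with riebeckite fragments (-0.47, adjusted p = 0.0119; 0.0535 without riebeckite fragments replicate 3). Psmb9, listed at 2.58 to 3.48 FPKM with riebeckite asbestos and 4.15 to 4.35 FPKM in untreated cells, passed narrowly with riebeckite asbestos (-0.42, adjusted p = 0.0496), and the call was lost on leaving out any 1 of 10 of the 15 libraries, at adjusted p = 0.0546 to 0.146. No inducible subunit passed with tremolite asbestos. There Psmb8 was at 30.8, 29.1 and 34.1 FPKM, above the 27.2, 28.9 and 27.7 FPKM of untreated cells. Psmb9 was at 7.07, 4.30 and 4.68 FPKM and Psmb10 at 21.9, 20.4 and 26.4 FPKM with tremolite asbestos.

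Within each library, an inducible subunit can be read as a ratio to the constitutive one it replaces, which does not depend on the scaling of the library. Psmb8 to Psmb5 was 0.220, 0.301 and 0.184 with riebeckite asbestos, 0.199, 0.312 and 0.205 with riebeckite fragments, 0.423, 0.476 and 0.512 with tremolite asbestos, 0.354, 0.352 and 0.348 with tremolite fragments, and 0.419, 0.501 and 0.4998 in untreated cells. The riebeckite libraries of both forms and the tremolite fragments libraries lay below all untreated ones, and those of tremolite asbestos overlapped them. The mean log2 ratio differed from untreated by -1.04, -1.02, -0.0072 and -0.42 in that order. Psmb10 to Psmb7 differed by -0.51, -0.71, -0.22 and -0.55, and Psmb9 to Psmb6 by -0.85, -0.18, 0.11 and -0.50. The Psmb9 to Psmb6 difference with riebeckite fragments was -0.11, -0.39 and -0.045 without replicate 1, 2 and 3 of that group, and the Psmb10 to Psmb7 difference with tremolite asbestos was -0.14 without its replicate 2 and -0.38 without its replicate 3. Of these 12 comparisons 8 gave the smallest p that an exact 2-sided permutation test of 3 against 3 allows, 0.1 (adjusted p = 0.15), so none could pass the threshold. In untreated cells the summed transcripts were 1.49 times the gene value for Psmb8, 1.93 times for Psmb9 and 1.09 times for Psmb10. They were 1.00 times for Psmb5, 2.14 times for Psmb6 and 2.54 times for Psmb7, so the level of these ratios depends on the table.

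Of the 35 related genes listed, 9 rose and 8 fell with riebeckite asbestos, 5 and 7 with riebeckite fragments, 2 and 3 with tremolite asbestos, and 3 and 3 with tremolite fragments. Over all genes tested the shares higher and lower were 21.0 and 24.3% with riebeckite asbestos, 15.3 and 23.1% with riebeckite fragments and 10.0 and 13.9% with tremolite asbestos, and with tremolite fragments 1328 and 1592 of 10616 genes. The counts of related genes lie near or below these shares, and nothing is read from them. Among the activators that open the core, Psme1 fell with riebeckite asbestos and riebeckite fragments (log2 fold change -0.37 and -0.36, limma adjusted p = 0.0115 and 0.0163), calls lost without riebeckite asbestos replicate 3 in the first case and without untreated replicate 2 or riebeckite fragments replicate 1 or 3 in the second, at adjusted p = 0.05004 to 0.0731. Psme3 fell with each particle, by 0.11 to 0.16 on the log2 scale, Psme2 passed with none, and Psme4 was higher with riebeckite fragments (0.10, adjusted p = 0.0399), a call lost without any 1 of 7 libraries at adjusted p up to 0.14. Usp14, a deubiquitinase that rides on the regulatory particle, was at 20.8 to 21.6 FPKM with riebeckite asbestos, 20.9 to 21.1 FPKM with riebeckite fragments, 22.0 to 22.5 FPKM with tremolite asbestos, 21.3 to 22.6 FPKM with tremolite fragments, and 24.3 to 24.6 FPKM in untreated cells, and it fell with each.

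Adrm1, a ubiquitin receptor of the base, was at 13.6, 10.8 and 14.2 FPKM with riebeckite asbestos and 9.69, 9.69 and 9.07 FPKM in untreated cells (log2 fold change 0.40, limma adjusted p = 0.0015). Nfe2l1 was at 16.4, 17.3 and 14.8 FPKM with riebeckite asbestos, 12.6, 12.4 and 12.2 FPKM with riebeckite fragments, 13.2, 11.8 and 14.6 FPKM with tremolite asbestos, 12.9, 13.3 and 11.8 FPKM with tremolite fragments, and 12.3, 12.3 and 12.6 FPKM in untreated cells. It passed with riebeckite asbestos (0.36, adjusted p = 0.000986) and was higher there than with riebeckite fragments (0.36, adjusted p = 0.00674) or tremolite asbestos (0.27, adjusted p = 0.0107). Its relative Nfe2l2 fell with riebeckite asbestos (-0.14, adjusted p = 0.00512) and riebeckite fragments (-0.23, adjusted p = 0.000154). The genes listed for the processing of Nfe2l1 were lower with riebeckite asbestos. Ngly1 was at 3.85, 4.39 and 4.46 FPKM there and 4.99, 5.62 and 5.34 FPKM in untreated cells. Ddi2 was at 17.1, 16.6 and 17.4 FPKM there and 18.4, 18.4 and 17.9 FPKM in untreated cells. A part of Nfe2l1 in the rises of the members was not tested. Sem1, Uchl5 and Pomp, a lid subunit, a deubiquitinase and the core maturation factor, passed with no particle.

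The carriers Sqstm1, which takes ubiquitin-tagged cargo to autophagy, and Ubqln2, which brings it to the proteasome, rose with each particle. Sqstm1 averaged 128 ± 8.44 FPKM with riebeckite asbestos, 99.6 ± 8.87 FPKM with riebeckite fragments, 104 ± 0.629 FPKM with tremolite asbestos, 115 ± 2.23 FPKM with tremolite fragments and 80.5 ± 0.795 FPKM in untreated cells (SD, n = 3). Its log2 fold changes were 0.66, 0.30, 0.37 and 0.51. Those of Ubqln2 were 0.47, 0.41, 0.25 and 0.38, and all 8 calls held under every alternative run. The other genes of the shuttle and ubiquitin list did not all rise. Ubqln4 was at 7.87 to 8.93 FPKM with riebeckite fragments, 8.58 to 9.35 FPKM with tremolite asbestos and 8.62 to 9.04 FPKM with tremolite fragments. These lay below its 9.52 to 10.3 FPKM in untreated cells, which riebeckite asbestos overlapped (9.37 to 10.8 FPKM).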

How the data were processed

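Oligo(dT)-selected RNA from 15 libraries was sequenced after dUTP second-strand synthesis, per the labels' protocols. The submitters' processing notes name cutadapt, HISAT2, StringTie and GRCm38, without versions or annotation release. The authors' deposited gene and coding-transcript tables hold FPKM, a unit read from the values, and no counts, so depth is unknown.

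A gene was kept if it reached 0.5 FPKM in 3 libraries (10616 of 10653). Its log2(FPKM + 1) values were fitted with limma 3.58.1 (R 4.3.3, mean-variance trend, all 15 libraries by group), with Benjamini-Hochberg adjustment per comparison at 0.05. Fold changes on this scale understate those of low genes. The fit was also run on simulated data, and no outcome of that run is given here. Python 3.11.15, SciPy 1.17.1 and matplotlib 3.10.9 did the rest.

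Members and lists were chosen with earlier results of these data known. Named were catalytic subunits, up to 5 rises and 5 falls per particle and 3 per other comparison, extremes of level and set related genes; other calls were named after their values were seen. Alternatives were median-ratio, quantile and nuclear-gene scaling, a pseudocount of 0.1, no filter, mean FPKM of 5 or above, replicate block, only the groups compared, no trend, summed transcripts and omission of each library. Their use on related genes and on calls between treatments was chosen after seeing the data.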

Additional observations from a re-analysis of the deposited data

Results flagged for a closer look

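The effect of asbestos against fragments differed between the minerals for 2 of the 40 members, by the limma interaction of mineral and habit. That count lies near the share of all genes tested, 3.93%. For Psmd2, the base subunit that docks ubiquitin carriers, the difference (riebeckite minus tremolite) was 0.19 on the log2 scale (SE 0.0432, adjusted p = 0.0322). Its levels were 75.9, 76.4 and 72.9 FPKM with riebeckite asbestos and 65.8, 65.4 and 68.5 FPKM with riebeckite fragments, and 67.8, 65.6 and 64.2 FPKM with tremolite asbestos and 66.9, 66.2 and 66.6 FPKM with tremolite fragments. For Psmg4, a core chaperone, it was 0.54 (SE 0.131, adjusted p = 0.0384), with 14.5, 14.4 and 13.7 FPKM and 10.9, 12.8 and 11.2 FPKM for riebeckite, and 12.7, 10.5 and 9.69 FPKM and 12.1, 14.6 and 13.5 FPKM for tremolite, asbestos before fragments. Each call was lost on leaving out any 1 of 10 of the 15 libraries, at adjusted p = 0.0501 to 0.0832 for Psmd2 and 0.0506 to 0.0983 for Psmg4. Neither call held with median-ratio scaling, in a fit of only the groups compared or by summed transcripts. Psmd2 was also lost without a mean-variance trend, and its limma adjusted p over these alternatives reached 0.936.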

How the results depend on the processing

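Of 33 member changes called against untreated cells, 12 held in all 25 alternatives: with riebeckite asbestos Psmb4, Psmb5, Psmb6, Psmc3, Psmc5, Psmd1, Psmd8 and Psmd10, with riebeckite fragments Psmb5, with tremolite asbestos Psmd8 and Psmd10, and with tremolite fragments Psmd10. For the differences below the cause was not tested.

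With quantile normalization the number of members called was 7 for tremolite fragments against untreated cells, 6 for riebeckite asbestos against riebeckite fragments, 6 for riebeckite asbestos against tremolite asbestos, 0 for riebeckite against tremolite fragments and 1 for the difference between minerals. With summed transcripts it was 2, 4, 8, 0 and 0 in that order. In a fit of only the groups compared it was 1 and 6 for the riebeckite habit and the asbestos comparisons and 0 for the difference between minerals. Rescaled to nuclear genes, it was 6 between the asbestos minerals and 2 between the fragments. Without a trend it was 0 between the fragments and 1 for the difference between minerals, which was 0 with median-ratio scaling.

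Leaving out 1 library at a time gave 12 to 17 calls for riebeckite asbestos, 4 to 9 for riebeckite fragments, 2 to 4 for tremolite asbestos and 1 to 7 for tremolite fragments against untreated cells. It gave 5 to 10 between the riebeckite habits, 0 to 0 between the tremolite habits, 6 to 12 between the asbestos minerals, 0 to 2 between the fragments and 0 to 2 for the difference between minerals. An alternative turned the sign of Psmb6 with riebeckite fragments (-0.014 rescaled to nuclear genes, -0.0058 to 0.088 without 1 library), Psmb7 with tremolite asbestos (-0.0035 with quantile normalization, -0.018 rescaled, -0.034 to 0.057 without 1 library) and Psmg1 with tremolite fragments (0.051 with summed transcripts). It also turned the tremolite asbestos ratios of Psmb8 to Psmb5 (0.019 with summed transcripts, -0.093 to 0.067 without 1 library) and Psmb9 to Psmb6 (-0.065 to 0.21 without 1 library).

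Groups share replicate numbers in the titles. Deviations of same-numbered libraries correlated at -0.06 to 0.17 over 30 pairs (median 0.019, against -0.016 for other numbers), and 10 of 15 libraries correlated best with a library of their own number, a hint from the data that numbers may mark something shared. Neither the labels nor a correlation over 0.1 in every pair established pairing, so the samples were not treated as paired. With the replicate as a block the counts were 17, 9, 4 and 6 against untreated cells, 9 and 0 between habits, 11 and 3 between minerals (asbestos, then fragments), and 2 for the difference between minerals. Depth is unknown, so no counting error could be given, and 3 libraries per group limit precision.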
